A study of Mus musculus with 22 samples.

Results

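The rows described here are the microRNA gene rows of the CA1 expression matrix, those whose symbol begins with Mir and a digit or with Mirlet and whose mean over all 22 libraries was at least 0.1 FPKM (a fragment count scaled by transcript length and library size). Of 23361 rows in the matrix, 650 had such a symbol, 304 reached the threshold and the other 346 were listed at 0 in every library. No row lay above 0 and below the threshold, so nothing stood just outside it, and the rows just inside were Mir143hg at 0.318 FPKM, Mir17hg at 0.331 FPKM and Mir1187 at 0.413 FPKM. The rows were chosen by their mean FPKM in these libraries, so levels are given as a description. The libraries came from the hippocampal CA1 region, microdissected from perfused female mice of the cross Swiss Webster x DBA/C57BL6 F1, with 1 library for each mouse. AL mice (diet labelled normal) had free access to food and CR mice (diet labelled calorie-restricted) ate a ration reduced in carbohydrates. At 5 months each diet had 5 mice, and at 15 months 6, all without a transgene or other treatment in the labels. Each library is a mixture of the cells in the dissected piece, so fewer cells of a type and less RNA per cell cannot be told apart. The defining markers of CA1 pyramidal neurons, 8 of 8 genes, were above 0 in every library. So were all markers listed for CA3, dentate gyrus, neocortex and subiculum, thalamus and choroid plexus, so presence alone does not tell CA1 tissue from these.

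A microRNA is cut from a hairpin within a longer primary transcript, first by Drosha with Dgcr8 in the nucleus and then by Dicer1 in the cytoplasm. The short strand that remains guides an Argonaute protein to messenger RNAs, mainly through its seed, bases 2 to 8. Many hairpins lie in introns or exons of a host gene and are transcribed with it. The libraries analysed here were made from polyadenylated RNA with a kit that does not keep the strand, so a row holds fragments that fell on the hairpin's stretch of the genome, in either direction, and it is no measure of the mature microRNA. The 296 hairpin rows that could be placed spanned 56 to 134 nt, with a median of 84 nt, and the FPKM of genes this short is noisy. Mir22hg, Mir17hg and Mir143hg are longer host transcripts, and Mir22hg, the most abundant of them, had 15.6 to 26.3 FPKM over the 22 libraries.

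Mature sequences were available in RefSeq (GRCm38.p6) for 274 of the 304 rows. The first set belongs to rows with the highest FPKM and is shown with the seed in capitals, 5′ to 3′; miR-9-5p comes from 3 rows and miR-24-3p from 2.
miR-3064-5p: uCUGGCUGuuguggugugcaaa
miR-24-3p: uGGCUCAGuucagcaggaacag
miR-568: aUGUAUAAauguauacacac
miR-1900: gGCCGCCCucucugguccuuca
miR-186-5p: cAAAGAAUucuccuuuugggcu
miR-9-5p: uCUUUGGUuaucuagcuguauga
miR-3072-3p: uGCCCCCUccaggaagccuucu
miR-707: cAGUCAUGccgcuugccuacg
miR-1839-5p: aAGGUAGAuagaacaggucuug

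The second set belongs to rows called different with age in AL mice, the comparison with the most calls, and the capitals again mark the seed.
miR-1954: aCUGCAGAgugagacccuguu
miR-3060-5p: gGGAGUGCuucgugcuucug
miR-1251-5p: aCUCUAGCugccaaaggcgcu
miR-1969: aAGAUGGAgacuuuaacaugggu
miR-26b-5p: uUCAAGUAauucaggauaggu
miR-27a-3p: uUCACAGUggcuaaguuccgc
miR-344g-5p: aGUCAGGCuccuggcaggagu
miR-377-3p: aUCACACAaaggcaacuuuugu
miR-680: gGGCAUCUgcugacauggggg
miR-3471: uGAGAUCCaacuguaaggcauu

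The third set shows families in which several rows share a seed. The let-7 strands share GAGGUAG over 9 rows, and miR-132-3p and miR-212-3p share AACAGUC.
let-7a-5p: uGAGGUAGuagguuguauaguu
let-7b-5p: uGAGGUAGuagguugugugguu
let-7d-5p: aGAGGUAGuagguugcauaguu
let-7e-5p: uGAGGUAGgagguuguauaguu
let-7i-5p: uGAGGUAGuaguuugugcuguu
miR-132-3p: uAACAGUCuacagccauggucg
miR-212-3p: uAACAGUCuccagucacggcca
Over all rows with a mature sequence, 471 strands carried 392 different seeds, and 50 seeds occurred in 2 rows or more. The seed GUCAGGC of miR-344g-5p occurred in 7 rows of the Mir344 group, and UCACAGU of miR-27a-3p also occurs in miR-27b-3p. Identical mature strands were shared among 37 rows, and the reads of such copies may have been split between copies by the authors' multi-read correction.

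The values of these rows came in steps, which sets how far each can be read. In 18 of the 22 libraries, between 78.5% and 94.6% of pairs of rows of equal length had FPKM values whose ratio lay within 0.05% of a ratio of whole numbers up to 10. In the 4 libraries numbered 0 by their titles, 1 in each group, at most 1.94% of pairs did, so these 4 stand apart and results that rest on them are also given without them. In the 18 libraries a step is read here as the value that 1 fragment adds to a row of a given length. For a row of 83 nt, 1 step was 371 to 631 FPKM in AL mice at 5 months, 241 to 694 FPKM in CR mice at 5 months, 116 to 356 FPKM in AL mice at 15 months and 229 to 410 FPKM in CR mice at 15 months. The step was thus smallest in AL mice at 15 months, with a median of 255 FPKM against 406 FPKM in AL mice at 5 months, and these ranges did not overlap. Between 32.6% and 47.2% of the placed rows above 0 in a library stood at a single step. Values were whole multiples of the step, within 0.1 step, for 93.2% of low values in rows of 70 to 84 nt and 98.5% in rows of 85 to 99 nt, and for 39.6% and 66.5% in shorter and longer rows. Statements in steps are therefore limited to the 206 rows of 70 to 99 nt. A number of steps is not scaled to library size. Summed over these rows, AL libraries with steps held 234 to 365 at 5 months (median 347.9) and 330 to 576 at 15 months (median 462). Steps of the 2 ages are therefore not a like comparison with FPKM.

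**Figure D1:**
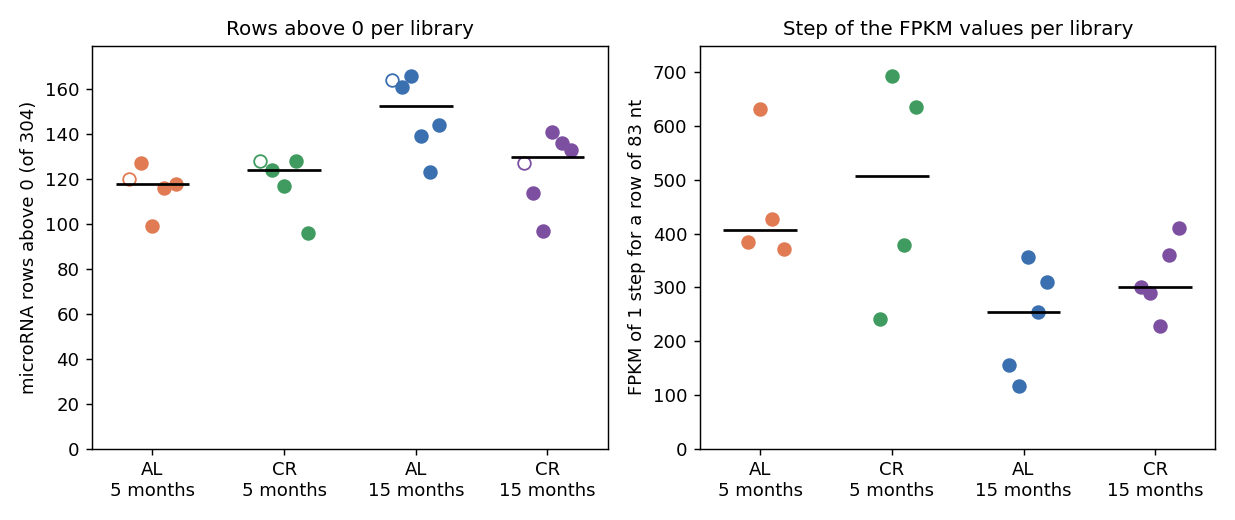
Left, the number of the 304 microRNA rows above 0 in each library, by diet and age. Right, the FPKM of 1 step for a row of 83 nt in the 18 libraries where steps could be fitted. Points are libraries, bars are group medians, and open circles are the libraries numbered 0. AL mice at 15 months have the most rows above 0, 123 to 166, and the smallest steps, 116 to 356 FPKM.

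Few of these rows were present throughout. Of 6688 values, 57.9% were 0, and 39 rows were above 0 in all 22 libraries while 56 rows were above 0 in a single library. Of the rows with a median over 5 FPKM, 77 of 114 microRNA rows were at 0 in at least 1 library, against 5 of 9909 other rows that are not small RNA genes. The number of rows above 0 per library was 99 to 127 in AL mice at 5 months, 96 to 128 in CR mice at 5 months, 123 to 166 in AL mice at 15 months and 97 to 141 in CR mice at 15 months. Over all such other rows, the numbers above 0 in a library ran from 18100 to 18939. AL mice at 15 months also had the most rows seen in no other group, 34, against 8 in AL mice at 5 months, 16 in CR mice at 5 months and 14 in CR mice at 15 months. Of the 34 rows, 23 were 70 to 99 nt long and above 0 in a library with steps, and the highest value of 22 of them was under 1 step of some library in another group. The microRNA rows together took 14.8% to 27.6% of the summed FPKM of a library.

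Of the 10 rows with the highest FPKM, 7 lay in exonic sequence of a longer transcript. Mir3064 led with a mean of 18220 FPKM. Its hairpin (chr11:106782693-106782759, minus strand, GRCm38) lies in exonic sequence of at least 1 transcript of Ddx5, an RNA helicase that also serves the Drosha complex, and Ddx5 itself had 237 FPKM. Mir3960 (mean 11588 FPKM; chr2:32712900-32712972, minus strand) lies in exonic, untranslated sequence of Cdk9, the kinase that releases paused RNA polymerase II, which had 25.4 FPKM. Mir24-1 (mean 6348 FPKM; chr13:63301208-63301275, plus strand) shares the host 2010111I01Rik with Mir27b (3233 FPKM) and Mir23b (3023 FPKM), and it overlaps Mir3074-1 on the opposite strand over 68 bases, so reads of these 2 rows cannot be told apart. Mir568 followed at 6344 FPKM, and its host Zbtb20, a transcriptional repressor needed for the CA1 fate of pyramidal neurons, had 3.0 FPKM. Mir1900 (5891 FPKM) had no host in the matrix, Mir186 (5636 FPKM) lies in an intron of the splicing factor Zranb2, and Mir9-2 (5367 FPKM), a hairpin of the neural microRNA miR-9, lies in an exon of the long noncoding RNA C130071C03Rik. Mir3072 (5207 FPKM) lies at an exon edge of Mirg, Mir707 (4814 FPKM) in an exon of Akt1s1, an inhibitor of mTORC1, and Mir1839 (4574 FPKM) in an exon of 2900076A07Rik. Row and host FPKM thus differed widely even where the row was exonic, but FPKM of rows this short is no measure of their amount relative to the host.

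Placement relative to genes was known for 298 rows. An intron of a host in the matrix held 104 rows, an exon of at least 1 annotated transcript held 38, and 24 crossed an exon edge. A further 97 rows had no host on their strand and 35 had a host that was not in the matrix. The 166 rows with a host in the matrix shared 135 hosts, of which Mirg, a noncoding RNA of the imprinted Dlk1-Dio3 region, held 13. On the FPKM scale, 139 of the 166 rows had a higher mean than their host, and the median ratio of row to host was 16.7. For a row of 83 nt 1 step was 116 to 694 FPKM over the libraries with steps, while the median host level was 13.3 FPKM. A short row with few fragments can thus exceed its host, so the ratio is no measure of relative amounts of RNA. The ratio was 44.2 at the median for exon rows and 10.5 for intron rows. Its extremes ran from 0.0261 to 2998, the highest being that of Mir9-2 over C130071C03Rik, a host with 1.79 FPKM. Above 0 in all 22 libraries were 13 of 38 exon rows, 14 of 104 intron rows and 3 of 97 rows without a host.

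**Figure D2:**
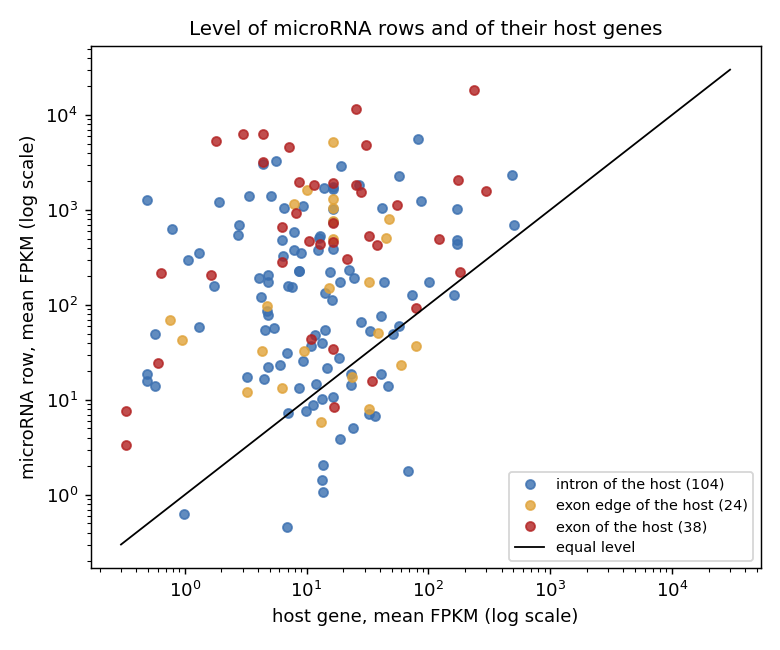
Mean FPKM over 22 libraries of each of 166 microRNA rows against the mean FPKM of its host gene, both on log scales, coloured by the row's place in the host. The line marks equal FPKM, which for rows this short is no measure of equal amounts of RNA. Of the 166 points, 139 lie above the line.

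Across libraries, rows followed their hosts loosely. After the group means of log2(FPKM + 0.1) had been removed, the correlation between row and host over the 22 libraries had a median of r = 0.11 over 166 pairs, with 112 above 0. Over the 29 pairs whose row was above 0 in every library, the median was r = 0.26, with 24 above 0. By permutation of libraries within groups (100000 resamples, two-sided), 14 of 166 pairs had an unadjusted p under 0.05 and 0 passed after Benjamini-Hochberg adjustment, the lowest adjusted permutation p being 0.29. The highest correlations were those of Mir486 with Ank1 (r = 0.62, rho = 0.63), Mir3072 with Mirg (r = 0.61, rho = 0.59) and Mir1247 with Dio3os (r = 0.60, rho = 0.50), with unadjusted permutation p of 0.00506, 0.0125 and 0.00838 for r, p of 0.00601, 0.0145 and 0.0226 for rho, and adjusted permutation p of 0.29 for each r. Without the 2 libraries whose host level was farthest from the median, r was 0.76, 0.50 and 0.45. The row Mir486 overlaps Mir3107 over 90 bases on the opposite strand, and it was at 0 in 11 libraries. The lowest were Mir30e with Nfyc (r = -0.66, row at 0 in 20 libraries), Mir3057 with Apba3 (r = -0.55, row at 0 in 18) and Mir707 with Akt1s1 (r = -0.43). Without the 2 farthest libraries these were -0.46, -0.55 and -0.37.

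The comparison of AL mice at 15 and 5 months addressed what changes with age on the unrestricted diet. Values of log2(FPKM + 0.1) were fitted with limma over 16978 rows, the 4 groups in 1 model, and a row counted as called where its Benjamini-Hochberg adjusted p, from a two-sided test, was under 0.05. Among microRNA rows 15 of 304 (4.93%) were called, against 20.6% of all rows tested. Of the 15, 12 were higher at 15 months (3.95% of the microRNA rows, against 10.7% of all rows) and 3 were lower (0.987%, against 9.97%). At an unadjusted p under 0.05 there were 38 microRNA rows, 12.5%, against 35.2% of all rows. Without the 4 libraries numbered 0, 10 microRNA rows were called, 7 higher and 3 lower, against 2702 of all 16978 rows. They were Mir1251, Mir1969, Mir26b, Mir27a, Mir680-2, Mir568 and Mir1954, which are among the 15, and Mir345, Mir369 and Mir30c-2, which are not. The libraries of the groups did not overlap for 5 microRNA rows, 1.64%, against 14.0% of all rows. The tissue piece and the step also moved with this comparison. The region score, the mean log2(FPKM + 0.1) of 9 neocortex and subiculum markers minus that of 8 CA1 markers, was -2.56 to -1.06 in AL mice at 5 months and -0.33 to 1.15 at 15 months, without overlap; 4 of the 9 neocortex and subiculum markers rose and 5 of the 8 CA1 markers fell. The summed FPKM of the CA1 list was 255 to 537 at 5 months and 198 to 301 at 15 months, that of the neocortex and subiculum list 91.8 to 142 and 181 to 294, and none of these markers was at 0. With the region score as a covariate 0 of all 16978 rows were called, microRNA rows included, so the loss of calls was not particular to them. The log2 differences of Mir568, Mir1954 and Mir3060, the 3 rows called lower, were then -1.38, -2.34 and -1.52, with SE of 0.77, 0.63 and 0.82 against 0.47, 0.39 and 0.50 without the covariate. The choroid plexus list also moved, with 4 of 8 markers lower at 15 months and a summed FPKM of 4.42 to 35.2 at 5 months and 0.802 to 6.95 at 15 months in AL mice, and so did 2 of 6 CA3 and 2 of 6 dentate gyrus markers, all lower. With the choroid plexus score as a covariate 8 microRNA rows were called, 6 higher and 2 lower, against 2112 of all 16978 rows. Mir3060 was not among the 8 (limma adjusted p = 0.0664). The FPKM step, given above, was smaller at 15 months. The part of these in the calls was not tested further.

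The 3 rows that fell with age were Mir568, Mir1954 and Mir3060, all above 0 in every library. Mir568 (chr16:43640655-43640737, plus strand, GRCm38), whose 83 bases all lie in untranslated exonic sequence of Zbtb20, had 8619, 11904, 10025, 11642 and 6336 FPKM in AL mice at 5 months and 3663, 2028, 1750, 5363, 2798 and 1857 FPKM at 15 months. The lowest younger library was above the highest older one. On the log2 scale Mir568 fell by 1.83 (SE 0.47, limma adjusted p = 0.0101; exact permutation p = 0.00433, two-sided, 462 divisions). In steps, which are not scaled to library size, the 4 younger libraries that had them held 15.9 to 30.9 and the 5 older ones 5.98 to 15.1, also without overlap. Its host Zbtb20 had 3.43 to 6.09 FPKM at 5 months and 0.462 to 1.87 FPKM at 15 months and fell by 1.88 on the log2 scale (SE 0.44, limma adjusted p = 0.00528), so row and host fell by similar amounts. Within groups, Mir568 and Zbtb20 had r = 0.41 over the 22 libraries (unadjusted permutation p = 0.195). Without the 2 libraries whose host level was farthest from the median, r was 0.12. With the region score as a covariate the log2 difference of Mir568 was -1.38 (SE 0.77, limma adjusted p = 0.47). In that fit 0 of all 16978 rows were called.

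Mir1954 (chr2:32652329-32652414, plus strand) lies in an intron of Eng, endoglin of blood vessel endothelium. It had 5302, 4479, 6109, 4680 and 4987 FPKM at 5 months and 2216, 1703, 929, 1994, 1131 and 1816 FPKM at 15 months in AL mice. Every older library was under every younger one, Mir1954 fell by 1.70 on the log2 scale with SE 0.39 (limma adjusted p = 0.00499), and by exact permutation p was 0.00216, the smallest the design allows. In steps, which are not scaled to library size, the groups did overlap, 12.5 to 17.2 in the younger and 5.99 to 13.6 in the older libraries. Eng did not follow, with 4.45 to 5.78 FPKM at 5 months, 3.86 to 7.61 FPKM at 15 months and a log2 difference of 0.13 (SE 0.16, limma adjusted p = 0.579). With the region score as a covariate the log2 difference of Mir1954 was -2.34 (SE 0.63, limma adjusted p = 0.148). Mir3060 (chr11:4139364-4139446, plus strand), in an intron of Rnf215, a ring finger protein gene, had 3918, 2688, 3759, 2156 and 2236 FPKM at 5 months and 1626, 1248, 700.1, 1788, 254 and 929 FPKM at 15 months. The groups did not overlap in FPKM and the row fell by 1.64 on the log2 scale (SE 0.50, limma adjusted p = 0.0247; exact permutation p = 0.00649), while in steps it had 5.04 to 6.99 in the younger and 1.0 to 8.04 in the older libraries, which overlapped. Rnf215 differed by 0.05 on the log2 scale (SE 0.09, limma adjusted p = 0.725). With the region score as a covariate the log2 difference of Mir3060 was -1.52 (SE 0.82, limma adjusted p = 0.447). Without the 4 libraries numbered 0, its adjusted p was 0.0503.

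**Figure D3:**
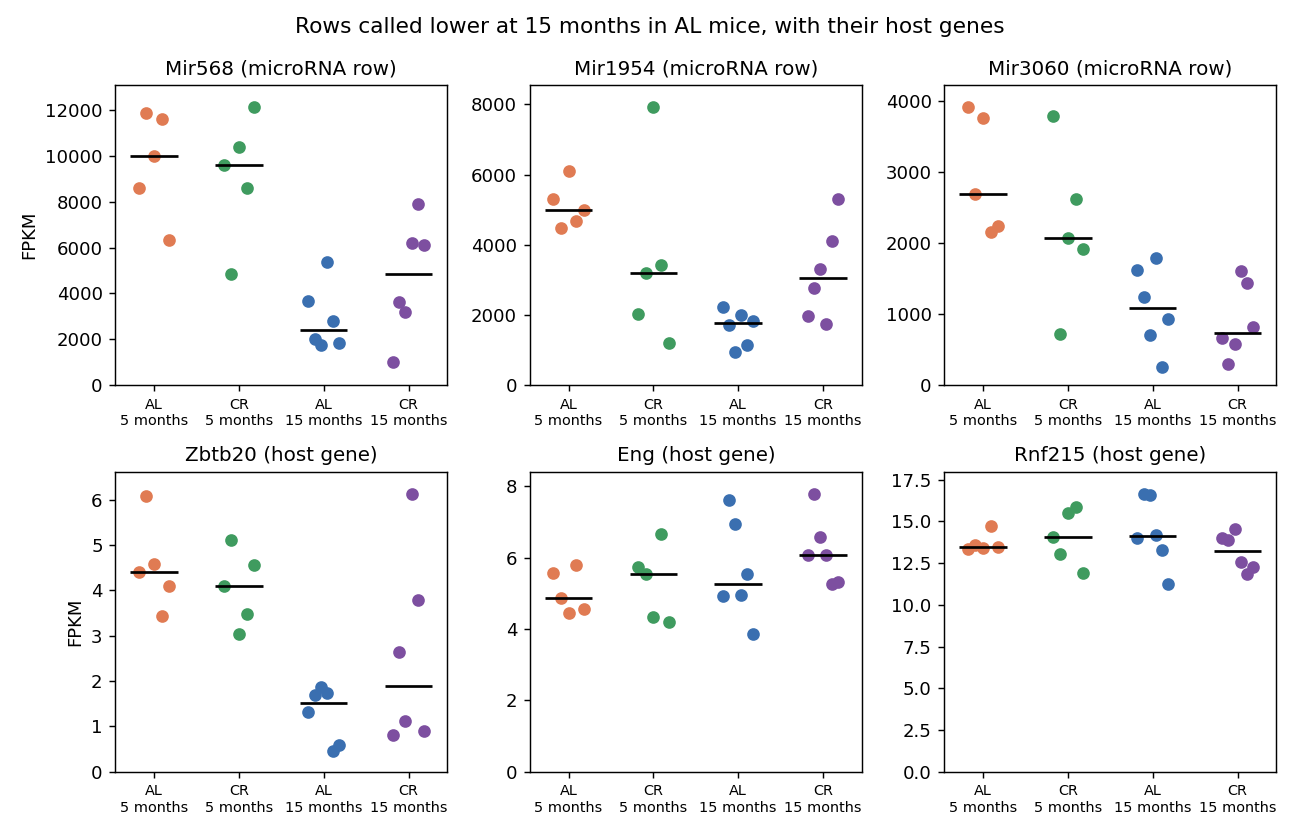
FPKM per library, by diet and age, of the 3 microRNA rows called lower at 15 months in AL mice (top) and of their host genes (bottom); points are libraries, bars are group medians, and each panel has its own scale from 0. Zbtb20 falls with Mir568, from 3.43 to 6.09 FPKM in AL mice at 5 months to 0.462 to 1.87 FPKM at 15 months, while Eng and Rnf215 overlap between ages.

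Further rows separated by age in AL mice without being called. Mir3064 had 21522 to 24562 FPKM at 5 months and 7028 to 17867 FPKM at 15 months in AL mice, without overlap, and a log2 difference of -1.0 (SE 0.59, limma adjusted p = 0.23; exact permutation p = 0.00649). It was called, lower, where the variance was not modelled on the mean level (SE 0.27, limma adjusted p = 0.0137) and in a robust fit (limma adjusted p = 0.0165). Mir25, an exonic row of Mcm7, had 577 to 1205 FPKM at 5 months and 0 to 571 FPKM at 15 months, also without overlap, with an adjusted p of 0.347; it is named because its groups did not overlap. In steps, which are not scaled to library size, the groups did overlap, 1.0 to 3.03 in 4 younger and 0 to 4.03 in 5 older libraries. Among the 10 rows of highest FPKM other than Mir568, the log2 differences with age in AL mice lay between -1.17 and -0.29, and none was called; under quantile normalization those of Mir3960, Mir186 and Mir1839 were above 0, at 0.36, 0.23 and 0.09. Over the 39 rows above 0 in every library, 34 were lower at 15 months, with a median log2 difference of -0.47, against a median of 0.00 over all rows tested. Under quantile normalization 27 of the 39 were lower, with a median of -0.16, and with libraries scaled to the same sum of other rows, which moved the median of all rows to 0.11, 32 were lower with a median of -0.35. No test was made of this count, and the step of the same libraries was also lower at 15 months.

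The 12 rows called higher at 15 months in AL mice were of another kind: for 9 of them all 5 younger AL libraries were listed at 0. These were Mir1251, Mir1969, Mir207, Mir26b, Mir27a, Mir365-1, Mir680-2, Mir761 and Mir877, and in AL mice at 15 months they were above 0 in 3 to 5 of 6 libraries. No fold is given for them. Mir1969 (chr8:70925525-70925618, no host) was above 0 in 5 older libraries, at 58.4, 73.0, 49.3, 161 and 177 FPKM, and had the lowest limma adjusted p, 0.000401 (exact permutation p = 0.0152). Mir1251, in an intron of the long noncoding RNA Rmst, had 363, 291, 107, 332, 0 and 0 FPKM at 15 months (limma adjusted p = 0.00556, exact permutation p = 0.0606). Mir26b, in an intron of the phosphatase gene Ctdsp1, had 366, 136, 99.2, 0, 209 and 0 FPKM (limma adjusted p = 0.00556, exact permutation p = 0.0606). For Mir27a and Mir877 the exact permutation p was 0.0606, and for Mir207, Mir365-1 and Mir761 it was 0.182. Over 37 other settings Mir27a kept its call in 10, Mir365-1 in 23, Mir207 and Mir761 in 24 and Mir877 in 30. Mir1251, Mir1969 and Mir26b kept it in 35 and Mir680-2 in 36. In each of the 9 rows the older AL libraries included values of 0, so the groups overlapped there.

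Of these 9 rows 8 were 70 to 99 nt long, and 7 of the 8 held at most 2 steps, rounded, in any AL library at 15 months with steps. In the same 7 the highest of those values was under 1 step of at least 1 younger AL library, 240 to 1136 FPKM depending on the row. For Mir1969, for example, the highest value was 177 FPKM and 1 step in the younger library with the largest step was 240.4 FPKM. Mir365-1, the exception, had 4.04 steps and 1071 FPKM in 1 library. Values under the largest 1-step value of a row were also raised to it in the 18 libraries with steps. Every AL value of these 7 rows lay under that floor, so their differences had to be 0 and the floor is no test of them. The count of microRNA rows called was then 4, namely Mir568, Mir1954, Mir3060 and Mir680-2, against 2758 of all 16978 rows. Mir680-2 is 110 nt long and was not raised, and another row carries the same mature strand, so its reads are uncertain. It had 252, 172, 187, 107 and 302 FPKM in 5 of 6 AL libraries at 15 months and 0 in the library numbered 0 (limma adjusted p = 0.0137, exact permutation p = 0.0152).

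The other 3 rows were above 0 in part of the younger libraries too. Mir344g had 1101 and 1022 FPKM in 2 of 5 younger AL libraries and 807 to 2870 FPKM in all 6 older ones (limma adjusted p = 0.0316). In libraries with steps it held 0 to 1.01 steps in the younger and 1.0 to 3.0 in the older. For this row of 71 nt, 1 step reached 1697 FPKM in a younger library, and the row was not called with the floor. Mir377, a Mirg exon row of the Dlk1-Dio3 cluster, had 1484 and 1483 FPKM in 2 younger and 958 to 4888 FPKM in 6 older libraries (limma adjusted p = 0.0484). Mir3471-1 had 58.9 FPKM in 1 younger and 36.0 to 102 FPKM in 6 older libraries (limma adjusted p = 0.0291). In CR mice at 5 months Mir377 was above 0 in all 5 libraries, at 1312 to 5259 FPKM. Of the hosts, Rmst rose with Mir1251, from 0.385 to 0.487 FPKM at 5 months to 0.763 to 1.14 FPKM at 15 months (0.90 on the log2 scale, SE 0.19, limma adjusted p = 0.003), whereas Ctdsp1, Abcf1 (host of Mir877), Nrd1 (host of Mir761) and Mirg were not called, with limma adjusted p of 0.792, 0.445, 0.291 and 0.088.

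**Figure D4:**
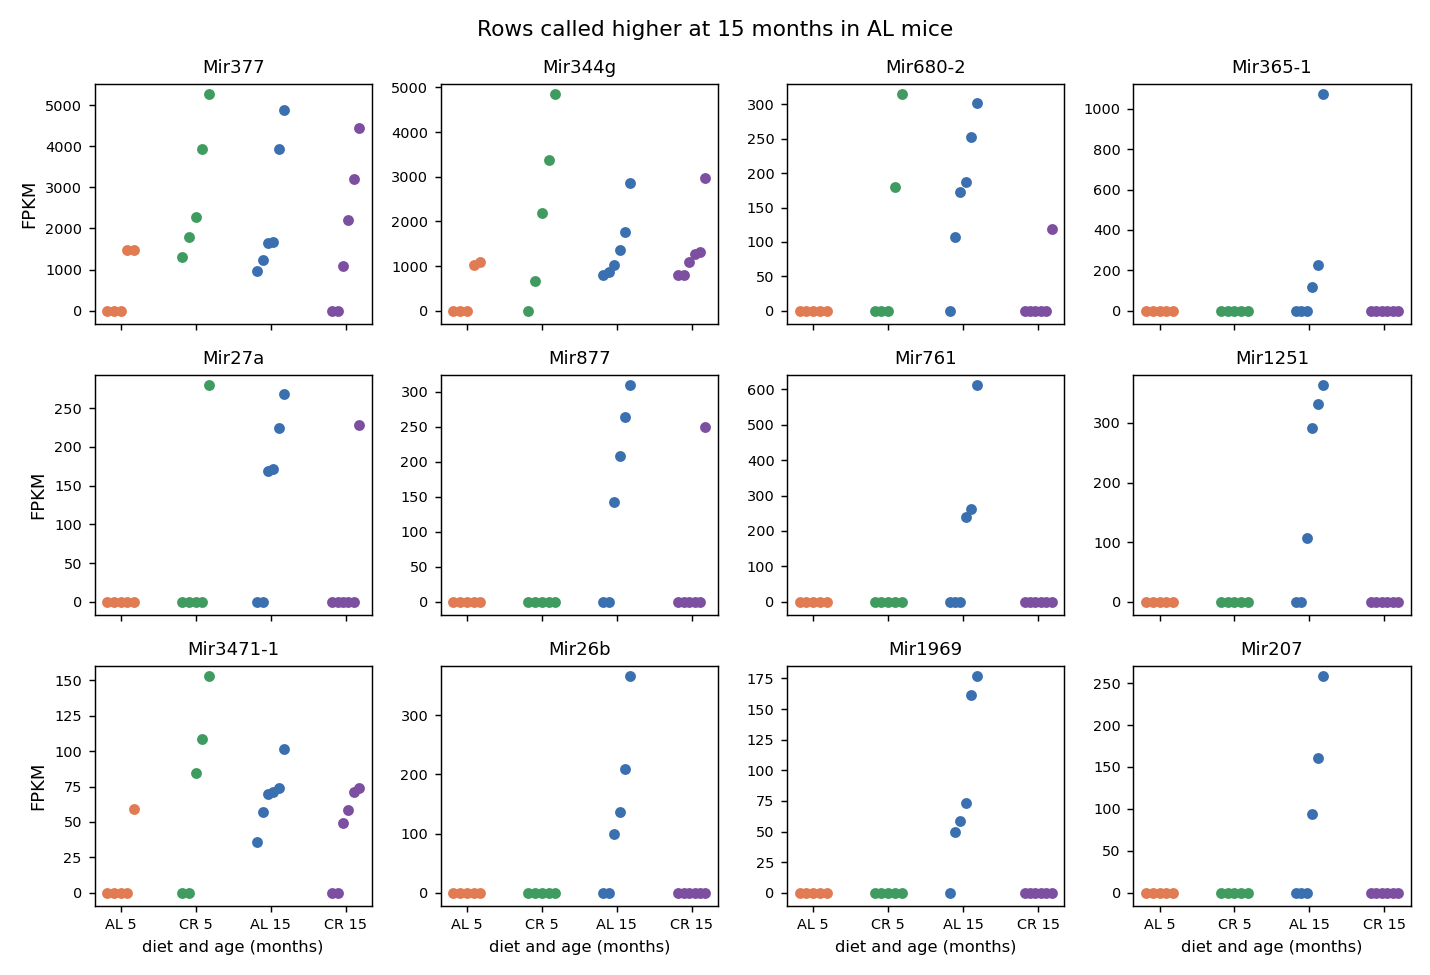
FPKM per library, sorted from lowest to highest within each group, of the 12 rows called higher at 15 months in AL mice; the horizontal axis gives diet and age in months, and each panel has its own scale. For 9 rows the 5 younger AL libraries are all at 0, and most values in the other groups are at 0 as well.

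CR and AL mice were compared at 15 months to ask how the diet bears on the aged CA1 region. Of the microRNA rows 3 (0.987%) were called, against 0.742% of all rows. All 3 were lower in CR mice, against 0.412% of all rows lower and 0.330% higher. They were Mir1251, Mir1969 and Mir26b, which were listed at 0 in all 6 CR libraries, and their AL libraries are those of the comparison with age, so these calls rest on the same values. The limma adjusted p was 0.0418, 0.00333 and 0.0418, and the exact permutation p was 0.0606, 0.0152 and 0.0606. For Mir1251 and Mir1969 the highest AL value, 363 and 177 FPKM, was under 1 step of at least 1 CR library, 380.4 and 177.5 FPKM, and for Mir26b the highest AL value of 366 FPKM came from a library numbered 0 and compares with 353 FPKM. Without the libraries numbered 0, 1 microRNA row was called, against 234 of all 16978 rows. With the floor of 1 step 0 were, against 248 of all rows, and for these 3 rows the floor fixed that outcome in advance. In a fit of these 2 groups alone 0 of all 16978 rows were called, microRNA rows included. Leaving out 1 library left 1 microRNA row called for 16 of the 22 libraries, while the calls over all rows ran from 15 to 732. At an unadjusted p under 0.05 there were 27 microRNA rows, 8.88%, against 17.1% of all rows. The region score was -2.24 to 0.34 in CR mice at 15 months.

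The rows that fell with age in AL mice were not called between diets at 15 months. Mir568 had 984, 3617, 3196, 6187, 7916 and 6126 FPKM in CR mice, overlapping the AL mice, with a log2 difference of 0.54 (SE 0.45, limma adjusted p = 0.558). Zbtb20 had 0.808, 2.64, 1.13, 6.13, 3.79 and 0.898 FPKM in the same libraries. The region scores of these libraries, in the same order, were 0.251, -1.535, -0.394, -2.238, 0.344 and -0.019. The relation of the score to Zbtb20 or Mir568 was not tested. Mir1954 had 1741 to 5314 FPKM in CR mice (log2 difference 0.93, SE 0.37, limma adjusted p = 0.21), and Mir3060 had 301 to 1604 FPKM (log2 difference -0.24, SE 0.47, limma adjusted p = 0.827).

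The remaining comparisons called 0 microRNA rows with limma. For CR against AL at 5 months 16 rows had an unadjusted p under 0.05 (5.26%, against 4.65% of all rows), and 0% of all rows were called. Mir132, whose microRNA is induced by CREB in active neurons, was at 0 in 2 AL libraries and at 9395, 3081 and 1739 FPKM in the others, against 1674 to 6696 FPKM in CR mice (limma adjusted p = 1.0), and Mir212, from the same primary transcript, had 637 to 1441 and 726 to 2012 FPKM. For CR mice at 15 against 5 months 21 rows had an unadjusted p under 0.05 (6.91%, against 18% of all rows), and 3.36% of all rows were called, 1.10% higher and 2.26% lower. There Mir568 differed by -1.17 (SE 0.47, limma adjusted p = 0.185) and Mir3060 by -1.33 (SE 0.50, limma adjusted p = 0.151). The choroid plexus score was 0.256 to 5.00 in CR mice at 5 months and -2.53 to -1.03 at 15 months, without overlap. In this comparison 6 of 8 choroid plexus markers were called lower. With this score as a covariate 0 of all 16978 rows were called, against 570 in the main fit. The part of the tissue piece in these differences was not tested further. Mir99a, in an intron of the noncoding 2810055G20Rik, was above 0 in 1 of 5 CR libraries at 5 months, at 1787 FPKM, and in all 6 at 15 months, at 1066 to 5022 FPKM (limma adjusted p = 0.0871); it is named for this pattern, seen after the fit. For the age by diet interaction 20 rows had an unadjusted p under 0.05 (6.58%, against 7.66% of all rows), and 0% of all rows were called. The interaction of Mir568 was 0.66 (SE 0.66, limma adjusted p = 0.823) and that of Mir1954 was 1.73 (SE 0.55, limma adjusted p = 0.608), so a difference between diets in the change with age was not shown for either.

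Groups of rows were described by their counts. Of 28 rows of neuron-enriched microRNAs in the matrix 20 were above 0 somewhere, and 2, Mir9-2 and Mir212, were above 0 in every library. Mir132 (3401 FPKM), Mir128-1 in an intron of R3hdm1 (2269 FPKM) and Mir138-2 (1817 FPKM) were at 0 in 2, 2 and 3 libraries, whereas Mir124a-3 was above 0 in 5 libraries and Mir137 in 3. None of the 20 was called in any comparison, against 20.6% of all rows called with age in AL mice, 3.36% with age in CR mice and 0.742% between diets at 15 months, shares that also stand beside the counts of the other groups of rows. The median log2 difference with age in AL mice was 1.74, against 0.25 over all microRNA rows and 0.00 over all rows tested. Such medians, here and for the groups of microRNA rows below, are no measure of a fold, since a row passing between 0 and 1 step moves by many log2 units. The median over all microRNA rows was 0 without the libraries numbered 0 and 0 with the floor of 1 step. Of the 39 rows above 0 in every library, 34 were lower at 15 months. Of 12 let-7 rows 9 were above 0 somewhere and none was called. Mirlet7b had 634 to 2387 FPKM in AL mice at 5 months and 271 to 2165 FPKM at 15 months, Mirlet7d had 355 to 709.7 and 196 to 558 FPKM, and Mirlet7g was above 0 in 1 library of 22. Between these lay Mirlet7c-2 (490.1 FPKM, above 0 in 20 libraries), Mirlet7e (380.2 FPKM, 21), Mirlet7i (336 FPKM, 17), Mirlet7f-1 (244 FPKM, 17) and Mirlet7a-1 (128 FPKM, 12). The let-7 median with age in AL mice was 0.49.

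Of 14 rows of glial and inflammatory microRNAs above 0 somewhere, 1 was called, Mir27a with age in AL mice, and the abundant members were Mir24-1, Mir27b and Mir23b. Mir219-2, from an oligodendrocyte microRNA, had a mean of 374 FPKM and was at 0 in 2 libraries, while Mir142, Mir146 and Mir29a were each above 0 in a single library. The list's median log2 difference with age in AL mice was 1.41, which rows at 0 in some libraries make no measure of a fold. Of 21 rows on the list of ageing-associated microRNAs 8 were above 0 somewhere and 0 were called. Mir34a was above 0 in 2 libraries, both of AL mice at 15 months, at 40.2 and 67.2 FPKM (exact permutation p = 0.455), and the median of that list was 0.00. Of 7 choroid plexus and ciliated cell rows 1 was above 0, Mir34b in 1 library at 354 FPKM, while the choroid plexus score, the mean log2(FPKM + 0.1) of 8 epithelial markers, reached 5.00 in 1 CR library at 5 months against -2.53 to -0.60 in all libraries at 15 months. Of 45 rows of the Sfmbt2 intron cluster 2 were above 0 anywhere.

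The imprinted Dlk1-Dio3 cluster supplied 41 rows, the largest group, and 6 of them were above 0 in every library: Mir3072, Mir453, Mir409, Mir341, Mir541 and Mir1188. With age in AL mice 1 of the 41 was called, Mir377, higher, against 20.6% of all rows called and 10.7% called higher. The list's median was 1.40, with the same limit from rows at 0 in some libraries. Mir409 had 1229 to 2298 FPKM at 5 months and 377 to 1596 FPKM at 15 months in AL mice, with a log2 difference of -1.14 (SE 0.50, limma adjusted p = 0.105). Their long noncoding hosts, measured with smaller errors, were not called either. Rian, which holds Mir341 and Mir1188 in introns, had 172 FPKM on average and a log2 difference of 0.10 (SE 0.12, limma adjusted p = 0.594), Mirg 0.53 (SE 0.22, limma adjusted p = 0.088) and Meg3 0.40 (SE 0.20, limma adjusted p = 0.158).

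Of the genes that make and use microRNAs 20 were tested, all above 0 in every library; 5 rose with age in AL mice and 0 fell, against 10.7% of all rows higher and 9.97% lower. With the region score as a covariate 0 of all 16978 rows, these included, were called. For age in CR mice the same held with the choroid plexus score as a covariate. Lin28b, which blocks maturation of let-7, rose by 2.02 on the log2 scale (SE 0.19, limma adjusted p = 1.5e-05), from 0.356 to 0.480 FPKM at 5 months to 1.86 to 2.33 FPKM at 15 months, and it rose by 1.37 in CR mice (SE 0.19, limma adjusted p = 0.000393). The other 4 were Tnrc6a, a partner of Argonaute (0.46, SE 0.08), the RNA editing enzyme Adar (0.38, SE 0.07), the Argonaute gene Eif2c4 (0.31, SE 0.11) and Drosha (0.22, SE 0.06), with limma adjusted p of 0.0012, 0.000842, 0.0433 and 0.0122. None of the 20 was called between diets. The list's median with age in AL mice was 0.13, against 0.00 over all rows.

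The spread between libraries, 1 for each mouse, sets all of these comparisons. In rows of few steps, differences between mice and the noise of counting few fragments cannot be told apart in it. The standard deviation of log2(FPKM + 0.1) about the group mean had a median of 3.69 over the 304 microRNA rows and 0.73 over the 39 rows above 0 in every library, against 0.22 over all rows tested and 0.20 over the 135 host genes. Other rows with a mean of at least 100 FPKM had a median of 0.18, so the spread of microRNA rows was wide at levels where other genes were tight. Among microRNA rows of at least 100 FPKM, 147 rows, the median was 5.02, since a single 0 beside values in the range of a step moves such a row by many log2 units. The smallest value above 0 in a row had a median of 958 FPKM in rows of 50 to 69 nt, 312 FPKM at 70 to 84 nt, 150 FPKM at 85 to 99 nt and 22.8 FPKM at 100 to 140 nt, falling as the rows grew longer.

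**Figure D5:**
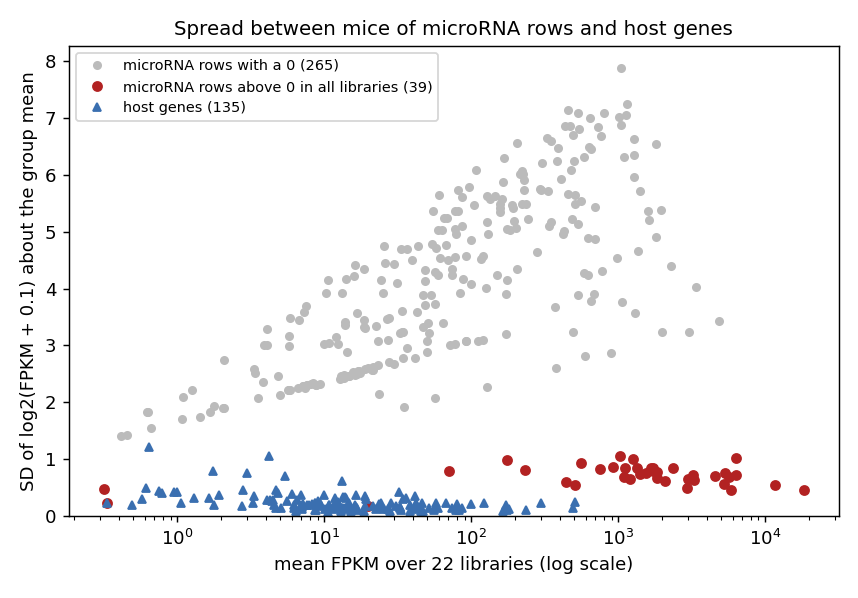
Standard deviation of log2(FPKM + 0.1) about the group mean against the mean FPKM over 22 libraries (log scale), for microRNA rows with a 0 in any library, microRNA rows above 0 in all libraries and host genes. Rows with a 0 lie above 1 and reach the widest spread near 1000 FPKM, while the 39 rows without a 0 have a median of 0.73 and the host genes a median of 0.20.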

How the data were processed

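CA1 poly-A RNA of 22 mice was sequenced from unstranded libraries. Per the labels and the study's methods, the authors aligned reads to mm10 with TopHat, removed duplicates with Picard and computed the deposited FPKM values with Cufflinks, with fragment bias and multi-read correction, after demultiplexing with bcl2fastq. Duplicate removal and effective length correction act strongly on genes shorter than a fragment. FPKM holds no counts, so depth is unknown beyond the steps, which were fitted per library and row length as the spacing of values of equal-length rows.

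Values were fitted as log2(FPKM + 0.1) with limma 3.58.1 in R 4.3.3 (trended empirical Bayes moderation, Benjamini-Hochberg adjustment) over 16978 rows with a mean of at least 0.1 FPKM, 4 groups in 1 model. Fold changes on this scale understate the change of rows whose values all lie near 0.1 FPKM. A microRNA row that passes between 0 and 1 step instead moves by many log2 units. p-values measure the spread between libraries, 1 for each mouse. In rows of few steps this spread also holds the noise of counting few fragments. Exact permutation tests ran over libraries in Python 3.11.15 with scipy 1.17.1. The fits and the steps were tested on simulated data. Positions came from GENCODE M21 (GRCm38) and mature sequences from RefSeq; host means the gene on the same strand that holds the hairpin. All 22 value columns matched a label and 0 were left out.

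The rows and lists were chosen with earlier results of these data known. Rows named were the 10 with the highest mean, the rows called (at most 6 rises and 6 falls in a comparison, widened to all 12 rises), listed microRNAs with a mean of at least 1 FPKM (given in part by counts), Mir568, rows at the threshold, hosts, and the 3 highest and 3 lowest host correlations. Rows of the Dlk1-Dio3 cluster, Mir25 and Mir99a were named after their values were seen. Same-numbered libraries of different groups did not deviate together (31 pairs, r from -0.139 to 0.163, 2 above 0.1), so the numbers were not taken as pairs. Alternatives covered the pseudocount, low-value filters, scaling, variance model, covariates, each library left out, and, chosen after seeing the data, the 4 libraries numbered 0 left out, a floor of 1 step and another scaling.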

Additional observations from a re-analysis of the deposited data

Results flagged for a closer look

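In the 39 rows above 0 in all libraries, with 2 further measures of the libraries, 164 group tests looked for a library far from the rest of its group, and 9 were met. Chance gives about 1 in 20 such tests. In CR mice at 15 months the library numbered 5 held 3 of them: Mir24-1 at 16291 FPKM with the next at 5460 FPKM, Mir1249 at 4427 FPKM with the next at 1261 FPKM, and Mir344-2 at 2043 FPKM with the next at 1124 FPKM. In the same group library 2 had Mir2861 at 3765 FPKM, the next being 1731 FPKM. In CR mice at 5 months Mir1898 was at 4152 FPKM in library 2 (next 1123 FPKM), Mir344-2 at 3258 FPKM in library 3 (next 876 FPKM), and Mir331 was lowest in library 1 at 770.3 FPKM (next 2417 FPKM). In AL mice at 5 months Mir1966 was at 508 FPKM in library 3 (next 203 FPKM), and Mir3064, the row of highest FPKM, was at 24562 FPKM in library 2 (next 22382 FPKM).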

How the results depend on the processing

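For age in AL mice, 15 microRNA rows were called by limma, and 4 with the floor of 1 step, 8 with a choroid plexus score as covariate and 0 with the region score. Over all 16978 rows these counts were 3502, 2758, 2112 and 0. Leaving out 1 library gave 10 to 16 microRNA rows, and 2382 to 3919 of all rows. For age in CR mice 0 microRNA rows were called, but 1 in a fit of 2 groups alone (Mir99a), 2 with the region score (Mir1934 and Mir700), 2 without the libraries numbered 0 (Mir668 and Mir99a) and 1 with the floor (Mir668). Over all 16978 rows the main fit called 570, and these settings 324, 49, 316 and 313. With the choroid plexus score as a covariate 0 of all rows were called, microRNA rows included. Leaving out 1 library gave 0 to 1 microRNA rows, with 1 when CR library 0 at 5 months or CR library 1 or 5 at 15 months was left out. For CR against AL at 15 months 3 microRNA rows were called, but 1 with robust variance, with the region score or without the libraries numbered 0, and 0 in a fit of 2 groups alone or with the floor. Over all 16978 rows the main fit called 126, and these settings 100, 5, 234, 0 and 248. Leaving out 1 library gave 1 to 4 microRNA rows, and 15 to 732 of all rows. CR against AL at 5 months gave 0 microRNA rows throughout, and the interaction 0 to 1 when 1 library was left out (Mir1969, without AL library 5 at 15 months). The spread of the microRNA rows was 2.57 with a pseudocount of 1. Under quantile normalization the uncalled differences with age in AL mice of Mir3960, Mir186 and Mir1839 turned to 0.36, 0.23 and 0.094. Scaling to the sum of other rows called 17 microRNA rows (14 higher, 3 lower), and among all rows 3093 higher and 902 lower, against 1809 and 1693. Except where the construction shows it (fewer libraries, raised values), the cause was not tested.

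With the replicate number as a block, 14 microRNA rows were called for age in AL mice, 10 higher and 4 lower. For CR against AL at 15 months 3 were called, and 0 elsewhere. Over all 16978 rows the block called 3754 for age in AL mice, against 3502 in the main fit. For CR against AL at 15 months it called 323, against 126, and for age in CR mice 617, against 570. Mir27a and Mir365-1 were among the microRNA rows no longer called for age in AL mice. Over 27 single-row comparisons and 999 settings, 819 kept direction and call, 175 lost the call, 2 gained one and 3 reversed. These comparisons include uncalled rows of highest FPKM, for which staying uncalled counts as kept, so every lost call fell on a called row. With age in AL mice Mir27a kept its call in 10 of 37 settings and Mir377 in 14, against 36 for Mir568 and for Mir1954. Between diets at 15 months Mir1251 and Mir26b each kept it in 15 of 37, and Mir1969 in 35. Mir3060 was not called under quantile normalization (0.0814), with a covariate (0.0664 and 0.447), without AL library 0 or 2 at 5 months (0.0529 and 0.0618) or 4 at 15 months (0.0547), or without the libraries numbered 0 (0.0503). The median row level gave no value, being 0 in 19 of 22 libraries. Rows of 1 or 2 steps limit what these data can show: a row at 0 may hold less than 1 step.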

Other observations

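Single libraries held some of the highest values. Mir3087 was at 23173 FPKM in 1 CR library at 5 months and at 0 in the other 21 libraries, and the 56 rows above 0 in a single library had a median value there of 300.3 FPKM. Mir466i, of the Sfmbt2 intron cluster, was above 0 in 21 of 22 libraries, at up to 142 FPKM, while 43 of the 45 rows of that cluster were at 0 in all libraries.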
